A study of Mus musculus with 5 samples.

Results

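The enzymes described here remove superoxide and hydrogen peroxide, and their genes were read in hearts of mouse embryos with and without Lrrfip2. They were taken as 10 listed symbols, namely the superoxide dismutases Sod1, Sod2 and Sod3, catalase (Cat) and the peroxiredoxins Prdx1 to Prdx6. The array annotation used here names a probe set for 8 of the 10, out of 23279 named genes in all. Prdx5, listed as mitochondrial, and Prdx6, listed as cytosolic, were not matched by symbol and were not analysed here, although the 1198 probe sets that carry no symbol may include theirs. Each of the 8 genes had a single probe set, and all 8 were above the level under which genes were left out as dim (4.44 on the log2 scale).

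The study compared 3 arrays of hearts with the genotype Control and 2 arrays of hearts with the genotype KO, all from untreated embryos at E10.5. The gene is named in the title of the series, which asks about its part in the response to hypoxia during heart formation. Neither the deleted part of the gene, the Cre line or strain used, nor whether controls are wild type or heterozygous is given in the sources used here. The labels also do not say whether an array holds 1 heart or a pool, so p-values measure only the spread between these 5 samples. Replicate numbers follow the order of deposit and pair no samples.

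Superoxide arises mainly as a by-product of the respiratory chain and of NADPH oxidases. Dismutases turn it into hydrogen peroxide, each in its own place: Sod2 with manganese in the mitochondrial matrix, Sod1 with copper and zinc in the cytosol, and Sod3 outside the cell. Catalase then destroys peroxide in peroxisomes, and peroxiredoxins do so with a reactive cysteine that thioredoxin, kept reduced by thioredoxin reductase, restores. Prdx1 and Prdx2 work in the cytosol, Prdx3 in mitochondria and Prdx4 in the endoplasmic reticulum. In the heart, with its dense mitochondria, Sod2 is essential: mice without it develop a dilated heart and die early.

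Lrrfip2 itself, on chromosome 9, had levels of 6.36 and 6.22 in knockout replicates 1 and 2 and 7.33, 8.07 and 8.08 in control replicates 1 to 3. Levels are log2 RMA values, and all differences are knockout minus control on that scale. The 15 cardiomyocyte markers had a mean level of 11.1 to 11.2 in controls and of 11.2 and 10.9 in knockout replicates 1 and 2, so markers of the labelled tissue were high on all arrays. The arrays differed in other cells: 21 of 22 endoderm markers had a named set, with a mean of 4.31 to 4.37 in controls, 4.34 in knockout replicate 1 and 7.24 in knockout replicate 2. White cell markers (17 of 18 named) averaged 4.88 to 4.95 in controls, 5.63 in knockout replicate 1 and 4.97 in knockout replicate 2. Red cell markers (15 of 20 named) averaged 6.57 to 8.13 in controls, highest in control replicate 3, and 6.43 and 6.64 in the knockout arrays. Endothelial markers (13 of 13) averaged 7.43 to 7.68 in controls and 7.91 and 7.65 in the knockout arrays, and epicardial and mesenchymal markers (12 of 12) 6.85 to 7.46, 6.82 and 7.60. No marker list was near 0, the red cell globin Hba-x lying between 11.1 and 12.0 on every array. In such bulk tissue, fewer cells of a type and less RNA per cell cannot be told apart.

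Stretches of 4 promoters are shown because these genes had groups that did not overlap: Prdx4 was higher in the knockout, and Prdx1, Sod2 and Prdx3 were lower. They are RefSeq sequences of build GRCm38.p6, read 5′ to 3′ in the direction of the gene. Capitals mark matches on either strand to TGACNNNGC, the core bound by NRF2, the main activator of antioxidant genes, and to ACGTG or GCGTG, the cores bound by hypoxia-inducible factors. The Prdx4 stretch is chrX:155338461-155338560 on the minus strand, the Prdx1 stretch chr4:116685419-116685518 on the plus strand, the Sod2 stretch chr17:13007709-13007838 on the plus strand and the Prdx3 stretch chr19:60874539-60874638 on the minus strand. All end at the base before the transcript start except that of Prdx1, which ends 81 bases before it.
Prdx4: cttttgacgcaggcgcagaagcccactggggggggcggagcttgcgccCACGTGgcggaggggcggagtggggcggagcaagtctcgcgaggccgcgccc
Prdx1: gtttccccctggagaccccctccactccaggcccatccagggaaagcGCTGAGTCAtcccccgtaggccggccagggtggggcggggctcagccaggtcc
Sod2: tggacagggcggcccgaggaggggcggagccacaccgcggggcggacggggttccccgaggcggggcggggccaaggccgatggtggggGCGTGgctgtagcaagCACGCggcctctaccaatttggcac
Prdx3: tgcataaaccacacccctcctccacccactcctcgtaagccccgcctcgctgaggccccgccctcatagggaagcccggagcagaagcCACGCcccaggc

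Promoter windows of 300 bases, 250 before and 50 after the start, were found for 7 of the 8 genes (Cat, Prdx1, Prdx2, Prdx3, Prdx4, Sod1 and Sod2). Prdx4 alone held ACGTG, 51 bases before the start. There it forms the palindrome CACGTG, so that it matches on both strands and is also an E-box. ACGTG was in 19.6% and CACGTG in 7.15% of the 32851 windows of the same length. GCGTG was in 4 of the 7 (Prdx2, Prdx3, Sod1 and Sod2) and in 32.4% of all windows. The NRF2 core was in 2 of the 7, Prdx1 and Sod1, and in 12.4% of all windows. In Prdx1 the match lies 133 bases before the start, and in Sod1 it lies 56 before and overlaps a GCGTG. A GC box, GGGCGG, was in all 7, against 35.7% of all windows, with 4 copies in Sod2 and 4 in Sod1. The windows were rich in G and C, from 57.0% in Prdx3 to 68.7% in Prdx2, where the median over all windows was 52.7%. These matches describe letters, not binding.

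Across the 8 genes the knockout hearts had lower levels of the mitochondrial Sod2 and Prdx3 and of the cytosolic Prdx1, and a higher level of the Prdx4 of the endoplasmic reticulum. The others, Sod1, Prdx2, Cat and Sod3, had differences within 0.16 of 0. In limma over 13967 genes, 0 of the 8 had an adjusted p under 0.05, as did 0% of all genes. An unadjusted p under 0.05 was found for 3 of the 8, each with a lower level. Of all genes, 8.78% had such a p, 5.49% with a lower and 3.29% with a higher level. Groups did not overlap for 4 of the 8, which was so for 21.3% of all genes. In total 7 of the 8 were lower, against 55.2% of all genes, and their median difference was -0.12 against -0.02 over all genes tested. The counts of single genes below rest on the same fit.

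**Figure D1:**
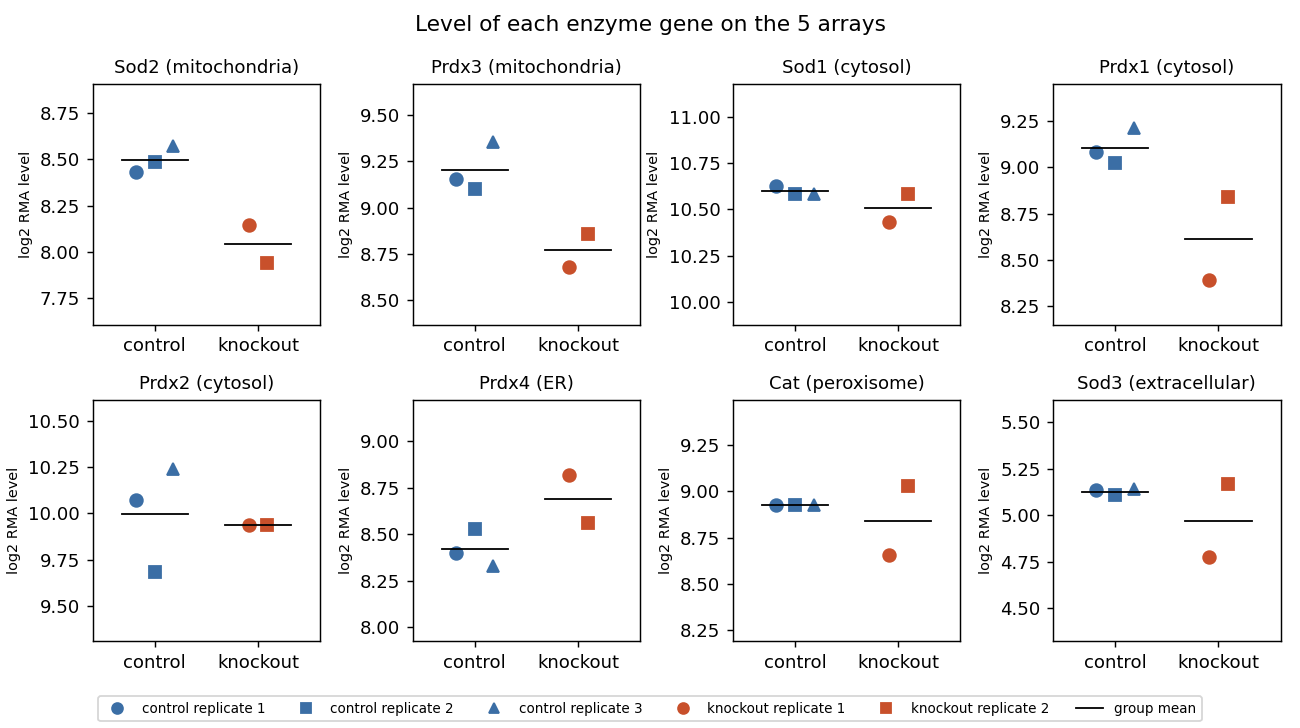
Log2 RMA level (vertical axes, each spanning the same 1.3 units) of 8 enzyme genes on 3 control arrays (blue) and 2 knockout arrays (orange), with the compartment of the enzyme in each title and group means as lines. Both knockout points of Sod2, Prdx3 and Prdx1 lie below all control points, those of Prdx4 lie above them, and those of Cat and Sod3 lie on opposite sides of the controls.

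Sod2, the dismutase of the mitochondrial matrix, had levels of 8.43, 8.48 and 8.57 in control replicates 1 to 3 and 8.14 and 7.94 in knockout replicates 1 and 2. The lowest control lay 0.289 above the higher knockout array, more than the whole range of the controls (0.14). The difference was -0.45 ± 0.09 (SE), 73.0% of the control level, with a 95% interval of -0.69 to -0.22. Its unadjusted p was 0.00577 and its adjusted p 0.356 in limma. Of all genes tested, 2.56% had a difference as low or lower. Without knockout replicate 2, which carried the endoderm transcripts, the difference was -0.35, and without knockout replicate 1 it was -0.56.

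Prdx3, which removes peroxide inside mitochondria, had levels of 9.16, 9.10 and 9.36 in control replicates 1 to 3 and 8.68 and 8.86 in the knockout arrays. All 3 controls were again above both knockout arrays, by at least 0.244. The difference was -0.43 ± 0.11 (SE), with a 95% interval of -0.73 to -0.14, an unadjusted p of 0.0149 and an adjusted p of 0.447 in limma. It was -0.52 without knockout replicate 2 and -0.35 without knockout replicate 1, where the unadjusted p was 0.0934. Unlike Sod2, which was lowest in knockout replicate 2, Prdx3 was lowest in knockout replicate 1. Control replicate 3, which had the highest red cell marker level, also had the highest level of Sod2, Prdx3, Prdx1 and Prdx2. For Prdx3, Prdx1 and Prdx2 all controls stood in the order of the red cell marker level, and for Sod2 they did not. With the red cell level as a covariate the differences were -0.42 for Sod2 and -0.30 for Prdx3. Their unadjusted p was 0.0359 and 0.0315 in limma, and the adjusted p was 0.753 for each. With the same covariate Prdx1 was at -0.37 (unadjusted p = 0.151) and Prdx4 at 0.16 (unadjusted p = 0.258).

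Among the cytosolic enzymes, Prdx1 had levels of 9.08, 9.02 and 9.21 in controls and 8.39 and 8.84 in knockout replicates 1 and 2. Both knockout arrays were below the controls, but the knockout arrays differed from each other by more than the controls did. The difference was -0.49 ± 0.16 (SE), with a 95% interval of -0.93 to -0.05, an unadjusted p of 0.0362 and an adjusted p of 0.541 in limma. It was -0.72 without knockout replicate 2 and -0.27 without knockout replicate 1. The unadjusted p was above 0.05 when any single array other than knockout replicate 2 was left out (0.0767 to 0.111).

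Sod1, the copper and zinc dismutase that forms most of the cytosolic activity, had levels of 10.63, 10.58 and 10.58 in controls and 10.43 and 10.58 in the knockout arrays. Knockout replicate 1 was thus 0.167 below the control mean, and knockout replicate 2 had the same deposited value as control replicates 2 and 3. The 95% interval of the difference, -0.25 to 0.07, does not reach the -0.45 of Sod2. The interval of Sod2 itself (-0.69 to -0.22) overlaps it. Prdx2, the peroxiredoxin most abundant in red cells, had levels of 10.07, 9.68 and 10.24 in controls. The knockout arrays had the same deposited value, 9.93, a tie that gives no spread between them. Its control range of 0.557 was the widest of the 8 genes and held both knockout values. The 3 controls stood in the order of their red cell marker levels (7.14, 6.57 and 8.13), as they did for Prdx3, Prdx1 and Sod3. For Sod2 and Sod1 they did not, and for Prdx4 they stood in the reverse order. The part of red cells in these orders was not tested. The difference of -0.06 (95% interval -0.58 to 0.45) turned to 0.18 with the red cell level as a covariate, to 0.06 without control replicate 3 and to 0.01 with array weights.

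Prdx4 uses peroxide in the endoplasmic reticulum to form disulfide bonds in new proteins. Its levels were 8.40, 8.53 and 8.33 in controls and 8.82 and 8.56 in the knockout arrays. It was the only one of the 8 with both knockout arrays above all controls, and knockout replicate 2 exceeded the highest control by 0.0295. The difference was 0.27 ± 0.11 (SE), with a 95% interval of -0.03 to 0.58, an unadjusted p of 0.0697 and an adjusted p of 0.57 in limma. Without knockout replicate 1 it was 0.14, and without knockout replicate 2 it was 0.40.

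Catalase and Sod3 were placed on opposite sides of the controls by the knockout arrays. Cat had a deposited value of 8.93 on all 3 control arrays, 8.65 in knockout replicate 1 and 9.03 in knockout replicate 2. Sod3, the secreted dismutase, had levels of 5.13, 5.11 and 5.14 in controls, 4.77 in knockout replicate 1 and 5.17 in knockout replicate 2. Control values of Sod3 lay within 0.034 of each other, and those of Cat were tied, which gives no spread for the controls. Both knockout arrays stood apart from the controls for Cat. For Sod3 only knockout replicate 1 did, since knockout replicate 2 lay just above the highest control. The differences of -0.09 ± 0.12 (SE) for Cat and -0.16 ± 0.13 (SE) for Sod3 average these opposite values. Without knockout replicate 2 the differences were -0.27 for Cat and -0.35 for Sod3. Without knockout replicate 1 the differences were 0.10 and 0.04. Knockout replicate 2 carried endoderm transcripts, with the fetal serum protein Afp at 11.42 against 3.86 in knockout replicate 1, and their part in its Cat and Sod3 levels was not tested.

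**Figure D2:**
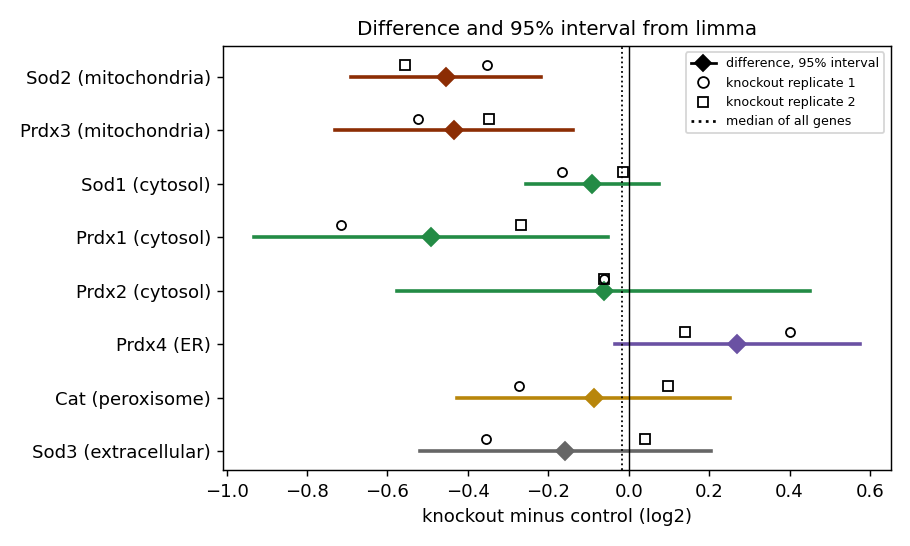
Knockout minus control difference (log2, horizontal axis) of the 8 genes with 95% limma intervals, coloured by compartment, and the deviation of each knockout array from the control mean as open symbols. The intervals of Sod2, Prdx3 and Prdx1 lie below 0, that of Prdx4 reaches from -0.03 to 0.58, and the dotted line marks the median of all genes at -0.02.

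The analysed mitochondrial enzymes were Sod2 and Prdx3, without Prdx5, and the cytosolic ones Sod1, Prdx1 and Prdx2, without Prdx6. This division did not order the genes fully, since Prdx1 was as far below its controls as Sod2 and Prdx3. The mean deviation of Sod2 and Prdx3 minus that of Sod1, Prdx1 and Prdx2 was -0.08, 0.08 and 0.00 in control replicates 1 to 3. It was -0.12 and -0.34 in knockout replicates 1 and 2, so the knockout arrays were lower by 0.23 on average (-0.23). The gap between knockout replicate 1 and the lowest control, control replicate 1, was smaller than the spread among controls.

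Ratios of enzyme pairs within an array were set to a mean of 0 in controls and are given as a description, since the lower and higher genes were known when pairs were formed. All 6 pairs of a mitochondrial over a cytosolic enzyme were taken. The log2 ratio of Sod2 to Sod1 was -0.09, 0.00 and 0.09 in controls and -0.19 and -0.54 in the knockout arrays. That of Prdx3 to Sod1 was -0.08, -0.09 and 0.16 in controls and -0.36 and -0.33 in the knockout arrays. Against Prdx2, Sod2 was at -0.29 and -0.49 and Prdx3 at -0.46 and -0.28 in the knockout arrays, where the lowest controls were at -0.16 and -0.12. Against Prdx1 the ratios stood on both sides of the controls, at 0.36 and -0.29 for Sod2 and at 0.19 and -0.08 for Prdx3. The ratios to Sod1 and Prdx2 were thus below all controls on both knockout arrays, and those to Prdx1 were not.

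The ratios of Prdx4 to the other peroxiredoxins were also higher in the knockout arrays on average, with overlap for Prdx2. Its log2 ratio to Prdx1 was 0.00, 0.19 and -0.20 in control replicates 1 to 3 and 1.12 and 0.41 in knockout replicates 1 and 2. Its ratio to Prdx3 was 0.92 and 0.49 in the knockout arrays and at most 0.21 in controls. Its ratio to Prdx2 was 0.46 and 0.20 in the knockout arrays, and control replicate 2 was at 0.43.

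**Figure D3:**
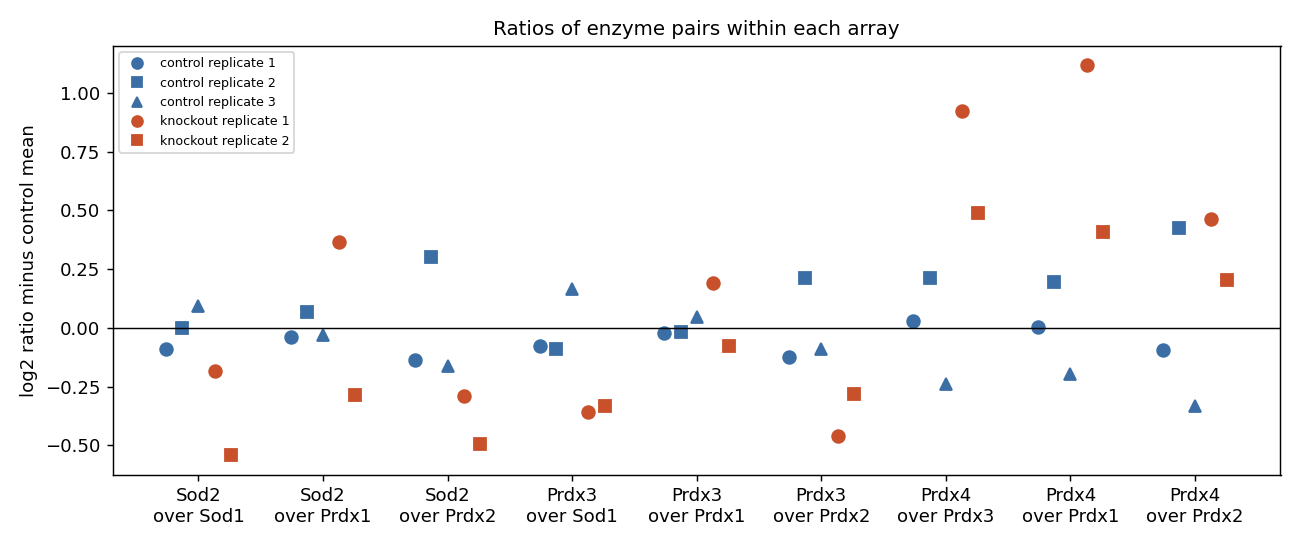
Log2 ratio of 2 genes on the same array, minus its mean in controls (vertical axis), for 9 pairs, with 3 control arrays in blue and 2 knockout arrays in orange. The knockout points lie below the controls for Sod2 and Prdx3 over Sod1 or Prdx2, above them for Prdx4 over Prdx1 or Prdx3, and are not separate from them for Sod2 and Prdx3 over Prdx1 and for Prdx4 over Prdx2.

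The genes that recycle peroxiredoxins were next read by compartment. Of 12 tested thioredoxin, sulfiredoxin and sestrin genes, 10 were lower and 2 higher in the knockout, and 3 of the lower and 1 of the higher genes had an unadjusted p under 0.05. Over all genes, 55.2% were lower. At an unadjusted p under 0.05 in limma, 5.49% of all genes were lower and 3.29% higher. The median difference of the 12 was -0.08, against -0.02 over all genes, and 0 of them passed the adjusted threshold. The 3 with the smallest p were Sesn2, Txnip and Txnrd2. Sesn2, a stress-induced inhibitor of mTOR signalling, had a difference of 0.92, from 4.47 to 4.60 in controls to 5.32 and 5.56. Txnip binds and blocks thioredoxin and is not itself a recycler, but it counts among the lower genes here. Its difference was -1.01, from 7.84 to 8.39 in controls to 6.90 and 7.44 (adjusted p = 0.457 in limma).

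Thioredoxin and its reductase are encoded separately for mitochondria and cytosol. Txnrd2, the mitochondrial thioredoxin reductase, had levels of 6.48, 6.35 and 6.65 in controls and 6.19 and 6.11 in the knockout arrays (difference -0.34, unadjusted p = 0.0307 and adjusted p = 0.519 in limma). Mitochondrial thioredoxin, Txn2, named after its values were seen as the partner of Prdx3, had levels of 9.06, 9.17 and 8.94 in controls and 8.38 and 8.80 in the knockout arrays (difference -0.46, unadjusted p = 0.0408 and adjusted p = 0.547 in limma). Groups did not overlap for either gene, nor for 21.3% of all genes. The controls of Txnrd2, like those of Prdx3, stood in the order of the red cell marker level. Those of Txn2 were lowest in control replicate 3, where red cell markers were highest. The cytosolic partners of Prdx1 and Prdx2, also named after their values were seen, were lowest in knockout replicate 1. Txn1 had a level of 8.01 there and of 8.18 in knockout replicate 2, beside 8.18 to 8.19 in controls. Txnrd1, the cytosolic reductase and an NRF2 target, had levels of 7.30 and 7.92 on the knockout arrays, compared with 7.97 to 7.98 in controls, so its groups did not overlap either (difference -0.36, adjusted p = 0.57 in limma). Sulfiredoxin, Srxn1, which rescues overoxidised peroxiredoxins, had a difference of -0.02.

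Sources of superoxide and peroxide were read next. Of 23 named genes in the list of sources, 11 were left out as dim, and the list holds no subunits of the respiratory complexes. Among the 12 tested, 9 had higher and 3 had lower levels (median 0.04), where 55.2% of all genes were lower. The 2 at an unadjusted p under 0.05 were both higher, as were 3.29% of all genes at that threshold. The 2 were P4hb and Ero1a, the pair that passes disulfide bonds to new proteins, of which the Ero1 oxidases release hydrogen peroxide. P4hb, protein disulfide isomerase, had levels of 9.71, 9.75 and 9.67 in controls and 10.04 and 10.05 in the knockout arrays. Ero1a had levels of 8.56, 8.47 and 8.60 in controls and 10.08 and 9.44 in the knockout arrays, a difference of 1.22 ± 0.21 (SE). The adjusted p was 0.333 for P4hb and 0.355 for Ero1a in limma. Its relative Ero1b, named after its values were seen, had a difference of -0.11. Both Ero1a and Prdx4 were higher in knockout replicate 1 than in knockout replicate 2.

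**Figure D4:**
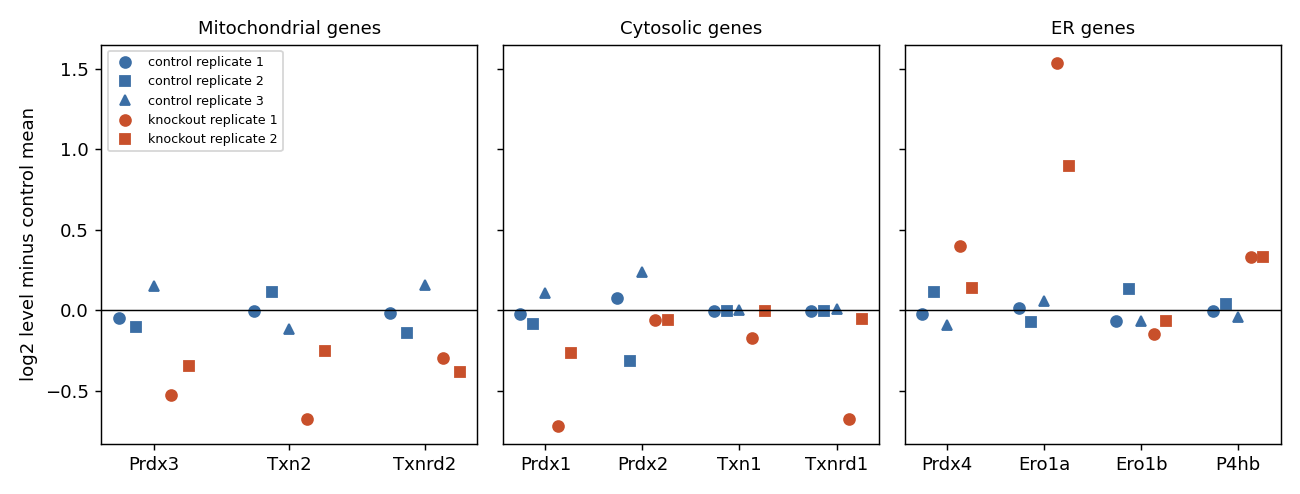
Log2 level minus the control mean (vertical axis) of Prdx3 with mitochondrial thioredoxin and its reductase, of the cytosolic peroxiredoxins with theirs, and of Prdx4 with Ero1a, Ero1b and P4hb, on 3 control arrays (blue) and 2 knockout arrays (orange). Both knockout points are below the controls for Prdx3, Txn2 and Txnrd2 and above them for Prdx4, Ero1a and P4hb, and also below the controls for Prdx1 and Txnrd1, while Ero1b and Txn1 overlap.

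The glutathione branch removes peroxide in parallel with peroxiredoxins. Of its 14 tested genes, 13 had lower levels, with a median difference of -0.22 and 3 at an unadjusted p under 0.05, all lower. Among all genes, 55.2% were lower, and 5.49% were lower at that threshold. The 3 were Gclc (-0.31), whose enzyme limits glutathione synthesis, and the glutaredoxins Glrx2 (-0.25) of mitochondria and Glrx (-0.49) of the cytosol. Glrx was at 6.33, 6.22 and 6.51 in controls and at 6.07 and 5.65 in the knockout arrays. All 14 tested red cell markers were lower too, with a median of -0.61. Controls of Glrx and Gclc stood in the order of the red cell level (7.14, 6.57 and 8.13), as did those of Gpx1 (10.84, 10.65 and 11.09) and Glrx5 (9.21, 9.12 and 9.79), both named after their values were seen. Gss (6.36, 6.31 and 6.44) and Gstp1 (10.10, 10.08 and 10.15), also named after their values were seen, had controls in this order too. Those of Gsr and Gclm were highest in control replicate 3 and tied on the other control arrays. Some other genes of the branch did not follow this order. Controls of Glrx2 (8.24, 8.14 and 8.12) were lowest in control replicate 3, as were those of Glrx3 and Gpx8, named after their values were seen. The part of red cells in the differences of the branch was not tested. None of the 14 passed the adjusted threshold in limma, and Gclc had the lowest adjusted p of these, 0.489.

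Genes listed for metal supply to the dismutases showed both directions. The list also holds Mtfr2 (-0.32), a mitochondrial fission regulator and not a metal supply gene, which counts among the lower genes. Of 12 tested genes, 7 were lower and 5 higher, with 1 in each direction at an unadjusted p under 0.05. Among all genes, 55.2% were lower and 8.78% had such a p. Atp7b, a copper pump, had levels of 6.13, 6.05 and 6.17 in controls and 7.11 and 6.83 in the knockout arrays (difference 0.85, adjusted p = 0.333 in limma). Atox1, which hands copper to such pumps, had a difference of -0.25, and the related pump Atp7a had one of 0.39. The copper chaperone of Sod1, Ccs, named after its values were seen, was within its control range of 7.16 to 7.71 in knockout replicate 1 (7.36) and below it in knockout replicate 2 (7.11).

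Transcription factors and deacetylases that control these enzymes were evenly divided. Of 21 tested, 10 were lower and 11 higher, with a median of 0.01, and the 2 at an unadjusted p under 0.05 were both higher. Among all genes, 8.78% had such a p. Foxo3, a known activator of Sod2 and Cat transcription, had levels of 5.92, 5.92 and 5.84 in controls and 6.30 and 6.47 in the knockout arrays (difference 0.49, adjusted p = 0.354 in limma). Its level was thus higher on the arrays where Sod2 was lower. Maff, a small partner of NRF2, had a difference of 0.33 and Bach1, a repressor of NRF2 targets, one of 0.29 (adjusted p = 0.457 and 0.57 in limma). Nfe2l2, the gene for NRF2, named after its values were seen, lay between 8.41 and 8.50 on all 5 arrays.

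Genes of the organelles were read as lists. Of 19 tested genes for mitochondrial import and housekeeping, 15 were lower, with a median difference of -0.11 and 3 at an unadjusted p under 0.05, all lower. Among all genes, 55.2% were lower, and 5.49% were lower at that threshold. The 3 were the import genes Timm17a (-0.24), Pmpcb (-0.19) and Timm50 (-0.31). Differences in this list ran from -0.72 for Phb, a scaffold protein of the inner membrane, to 0.66 for the protease gene Lonp1. Sod2 (-0.45) and Prdx3 (-0.43) were lower than every gene of the list except Phb. The next lowest after Phb was Timm50. Of 13 peroxisome genes, the setting of catalase, 7 had lower and 6 had higher levels (median -0.01). Pex10 (-0.23) and Pex16 (-0.14) had an unadjusted p under 0.05, and Pex5, the import receptor, had a difference of 0.18.

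The genes most like Sod2 in their deviations from the control mean, outside the lists, were Phtf2, Faap24 and Ccng1. Likeness was the root mean square difference over the 5 arrays, which was 0.0345, 0.0412 and 0.0451. Phtf2 had levels of 7.49, 7.56 and 7.72 in controls and 7.26 and 7.08 in the knockout arrays. Ccng1, a cyclin gene induced by p53, had levels of 9.58, 9.58 and 9.59 in controls and 9.24 and 8.99 in the knockout arrays.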

How the data were processed

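Total RNA of embryonic hearts (20 ng, Trizol) was labelled with the WT Plus kit and hybridised to Affymetrix arrays, per the labels' protocols. The authors deposited 1 table of log2 levels made with Affymetrix Expression Console and RMA, per the submitters' processing notes; their versions and settings were not stated in these sources. RMA gives arrays the same distribution, so a shift of all genes cannot be seen. Array medians were 5.07 to 5.11. Of 24479 probe sets, 23281 carry 1 symbol, 0 several and 1198 none; symbols were updated through RefSeq (GRCm38.p6) for 23156. The brightest set of each gene was kept, and genes with a mean under the 40th percentile were left out (9312), leaving 13967.

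Groups were compared with limma 3.58.1 in R 4.3.3 (lmFit, eBayes, two-sided, no covariate), with Benjamini-Hochberg adjustment over all genes tested and a threshold of 0.05. The steps were tested on simulated data. Members and lists were chosen with earlier results of these data known. Named genes were all members, the 3 of each pathway list with the smallest p and the 3 most like Sod2; the rule also named the 3 brightest markers of each cell type list, which are given here by list mean instead. Any other gene was named after its values were seen. Alternatives covered the filter, variance prior, array weights, normalization, probe sets, a red cell covariate and each array left out. The number of arrays limits the precision.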

Additional observations from a re-analysis of the deposited data

How the results depend on the processing

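The count of genes with an adjusted p under 0.05 was 0 in every setting except without knockout replicate 1 (9) or knockout replicate 2 (983), so it ranged from 0 to 983 when an array was left out. The count at an unadjusted p under 0.05 was 783 with array weights and 772 to 3818 without single arrays, against 1227. For the 8 enzymes the adjusted count was 0 to 2 and the unadjusted count 2 to 7 without single arrays, the highest without knockout replicate 2. The mitochondrial minus cytosolic value was -0.31 with medians over members and -0.34 to -0.12 without single arrays. Directions held in every setting for Sod2, Prdx3, Sod1, Prdx1 and Prdx4. The Prdx2 difference was 0.0068 with array weights, 0.18 with the red cell covariate and -0.22 to 0.058 without single arrays; Sod3 ranged from -0.35 to 0.040 and Cat from -0.27 to 0.10. With 1 knockout array left, the fit takes the spread between arrays from the controls alone. Its counts are therefore not comparable with those of the other settings. Over all genes, too, the adjusted and the unadjusted count were both highest without knockout replicate 2. No conclusion is drawn from the enzyme counts in that setting. The cause of the other shifts was not tested. Leaving out Prdx5 or Prdx6 was not run, since neither was matched. No paired analysis was possible because the sample numbers in the labels are not shared between the groups.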

Other observations

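Some genes of the NADPH oxidase of white cells had their highest level in knockout replicate 1, and others did not. Rac2, its regulatory GTPase, was at 6.71 there, at 5.17 in knockout replicate 2 and at 5.25 to 5.36 in controls. The subunit gene Ncf1 was at 5.48, against 4.70 in knockout replicate 2 and 4.83 to 4.87 in controls. Cybb, the catalytic subunit, was at 4.01 against 2.99 to 3.30 on the other 4 arrays, all under the dim level. The subunit genes Ncf4 (3.97) and Cyba (7.90) were not higher there than in controls (3.98 to 4.05 and 7.90 to 8.02). White cell markers were not alike in knockout replicate 1. Tyrobp, with the largest difference of that list, was at 7.65 there and at 4.85 to 5.09 on the other arrays. Cd68 was at 6.45, within the controls (6.35 to 6.62), and C1qa at 4.85, below them (5.13 to 5.42). The list mean was 5.63 there and 4.88 to 4.95 in controls. The part of white cells in these levels was not tested. Nox4, the oxidase gene of heart and vessel cells, had levels of 5.44 and 5.47 in the knockout arrays, within the control range of 5.09 to 5.78.

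The manganese importer gene Slc39a8 had levels of 7.58, 6.95 and 8.17 in control replicates 1 to 3 and the same deposited value, 6.58, on both knockout arrays. Its controls stood in the order of their red cell marker levels. The difference was -0.99, with an adjusted p of 0.57 in limma.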
